A study of Mus musculus with 12 samples.

Results

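The SLC25 mitochondrial carriers were followed in RNA of induced MEL cells. MEL is a line from mouse erythroleukemia in which induction switches on erythroid genes. Members were the genes with the symbol Slc25a and a number, other than Slc25a37 and Slc25a38, that had at least 30 reads summed over the 12 libraries. Of the 47 such symbols among 37991 genes per library, 2 were left out by name, 6 had too few reads and 39 were members. The 6 were Slc25a2 with 23 reads, Slc25a34 with 20, Slc25a31 with 3, Slc25a48 with 1, and Slc25a27 and Slc25a54 with 0. A filter on low counts kept 38 of the 39 members for testing, and Slc25a18, with 49 reads, did not pass it. The study had 4 groups of 3 libraries. In delta45, knockdown cells carried an Ldb1 construct named delta 4/5. In FL, knockdown cells carried full-length Ldb1. KD cells had the LDB1 knockdown alone. The remaining group is labelled control, and its label names no knockdown or construct and does not say whether a control vector was used. The knockdown was thus shared by delta45, FL and KD. The sources used here do not give how it was made, what drives the constructs, or whether a line is 1 clone. The labels name no separate cultures behind the 3 libraries of a group, and the spread that the p-values are set against may therefore be technical. In bulk RNA, fewer cells with a transcript and less transcript per cell cannot be told apart.

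SLC25 proteins sit mostly in the inner mitochondrial membrane, where each exchanges or carries a small set of solutes such as nucleotides, phosphate, amino acids, carboxylates or cofactors. They are made in the cytosol and brought in by the outer-membrane TOM pore, small TIM chaperones and the TIM22 complex. In erythroid cells mitochondria supply heme, which draws on carriers for iron, glycine, cofactors and carbon, and LDB1 is the adaptor that joins distant enhancers to promoters bound by GATA1 and TAL1 in these cells.

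Gene reads ranged from 8783970 to 20464959 per library, and the members took 0.3129 to 0.3816% of them. Ldb1 itself had 750.4 to 781 CPM (gene reads scaled to a common total with TMM factors) in delta45, 3209.7 to 3696 in FL, 97.1 to 159 in KD and 637 to 773 in control. These reads do not separate construct from endogenous RNA. The summed level of 12 erythroid markers was 5790.2 to 6158 CPM in delta45, 34319.8 to 40919 in FL, 3038 to 5275 in KD and 12513 to 13479 in control, with none of the 12 at 0. Sums of 4 megakaryocyte markers were 130.2 to 151 CPM in delta45, 2603 to 2751 in FL, 734 to 787 in KD and 804 to 904 in control. Sums of the 5 lymphoid and the 5 myeloid markers reached at most 16.1 and 10.7 CPM, both in KD, and mast-cell markers at most 2.23 CPM; Ms4a1 and Mcpt8 were at 0 in every group. The 5 stromal and endothelial markers summed to 11.8 to 13.5 CPM in delta45, 22.4 to 29.7 in FL, 22.0 to 51.5 in KD and 37.9 to 42.3 in control. The share of tallied reads aligned to several places was 38.69 to 39.22% in delta45, 42.26 to 47.12% in FL, 42.69 to 48.51% in KD and 50.6 to 53.31% in control. The part of these differences in the member results was not tested. The libraries do not mark strand, and exons of Slc25a10, Slc25a11, Slc25a18, Slc25a21, Slc25a23, Slc25a25, Slc25a26, Slc25a33, Slc25a35 and Slc25a46 overlap a gene on the other strand in a GRCm38 annotation, so reads of each such pair cannot be told apart there.

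Promoter windows are shown for 4 members chosen after their values were seen, as examples of different patterns: Slc25a45, with hardly any reads outside control, Slc25a53, higher in all lines with the knockdown, and Slc25a10 and Slc25a11, which moved in opposite directions between delta45 and FL. Each is the 250 bases before a RefSeq gene start (GRCm38.p6), read 5′ to 3′ on the gene's strand, with capitals on the GATA hexamers AGATAA or AGATAG or TGATAA or TGATAG and the E-box CANNTG, searched on both strands.
Slc25a45, chr19:5877572-5877821, plus strand: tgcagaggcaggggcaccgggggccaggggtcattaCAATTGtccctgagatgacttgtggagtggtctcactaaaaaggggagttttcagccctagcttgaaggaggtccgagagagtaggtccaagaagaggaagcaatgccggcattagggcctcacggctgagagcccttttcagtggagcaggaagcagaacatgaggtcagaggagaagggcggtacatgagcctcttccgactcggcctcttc
Slc25a53, chrX:137038303-137038552, minus strand, the most upstream of 2 starts: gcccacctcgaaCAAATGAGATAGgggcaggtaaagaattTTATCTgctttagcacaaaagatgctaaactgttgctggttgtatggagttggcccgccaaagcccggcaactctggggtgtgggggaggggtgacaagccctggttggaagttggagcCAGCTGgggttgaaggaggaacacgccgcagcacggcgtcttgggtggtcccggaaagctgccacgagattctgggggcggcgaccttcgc
Slc25a10, chr11:120491587-120491836, plus strand: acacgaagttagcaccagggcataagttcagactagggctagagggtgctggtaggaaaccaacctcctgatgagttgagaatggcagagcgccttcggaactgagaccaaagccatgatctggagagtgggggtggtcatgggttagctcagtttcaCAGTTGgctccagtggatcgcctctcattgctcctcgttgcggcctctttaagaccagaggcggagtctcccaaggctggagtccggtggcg
Slc25a11, chr11:70647040-70647289, minus strand: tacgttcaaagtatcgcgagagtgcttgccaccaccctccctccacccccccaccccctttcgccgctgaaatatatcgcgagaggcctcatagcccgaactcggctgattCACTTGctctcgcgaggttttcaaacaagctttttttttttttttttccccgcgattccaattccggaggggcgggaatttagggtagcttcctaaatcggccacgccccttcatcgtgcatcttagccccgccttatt
The Slc25a53 window shown held 2 GATA hexamers and 2 E-boxes, and the first E-box adjoins the first hexamer without overlapping it. The window of the other Slc25a53 start, not shown, held 0 hexamers and 1 E-box. Which start these cells use was not tested. The windows shown for the other genes each held 1 E-box and no hexamer. Across the 31 members found in the table, 6 of 41 windows (14.6%) held a GATA hexamer, against 26.5% of all 32851 windows of that length, and 28 of 41 (68.3%) held an E-box, against 66.2% of all windows. A match describes letters and does not show binding.

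In KD against control, 15 members were higher and 8 lower at an edgeR adjusted p under 0.05, which is 23 of 38. Of all 12837 genes tested, 49.7% were called, 25.6% as higher and 24.1% as lower. FL against KD gave 12 higher and 14 lower, with a background of 58.0% of all genes (26.3% higher, 31.7% lower). With library totals in place of TMM, that split was 7 higher and 20 lower. Library totals also shifted the median log2 change of all genes there, by -0.27. Shares of all genes called by library totals are not given in any comparison, so those splits have no background. In delta45 against KD, 8 were higher and 16 lower, with 59.9% of all genes called (29.2% higher, 30.7% lower). Without KD replicate 1, 13 were higher. The lower calls include Slc25a45, which rests on 0 reads in delta45 and 3 in KD. In delta45 against FL, 10 were higher and 9 lower, with a background of 52.8% (27.0% higher, 25.8% lower), and 13 and 7 by library totals. FL against control gave 10 higher and 9 lower with a background of 59.3% (28.1% higher, 31.2% lower), or 5 and 13 by library totals. Leaving out 1 library at a time gave 6 to 15 higher there, with 6 without control replicate 1 and 15 without KD replicate 1. In delta45 against control, 13 were higher and 11 lower, with 64.4% of all genes called (31.9% higher, 32.5% lower). The share of members called lay near or moderately above or below that of all genes, and members were called in both directions in every comparison.

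The median log2 change over the members was 0.09 in KD against control, -0.14 in FL against KD, -0.13 in delta45 against KD, -0.05 in delta45 against FL, and 0.11 both in FL and in delta45 against control. Over all genes tested the same medians were 0.02, -0.06, -0.01, 0.01, -0.01 and 0.01. Library totals shifted the medians of all genes by -0.27 in FL against KD, 0.28 in delta45 against FL and -0.22 in FL against control, and the member medians were then -0.40, 0.20 and -0.11, so the last 2 changed sign. With Slc25a45 left out where both groups had at most 3 reads and few-read members set at their bounds, the member medians were -0.09 in FL against KD, -0.10 in delta45 against KD and -0.07 in delta45 against FL, and the others kept their values. Calls of at least 2-fold were made for 7 members in KD against control, 8 in FL against KD, 9 in delta45 against KD, 10 in delta45 against FL, 8 in FL against control and 10 in delta45 against control. The backgrounds for such calls were 18.5, 25.8, 25.1, 23.6, 27.3 and 32.0% of all genes. The 9 in delta45 against KD include Slc25a45, which had 0 reads in delta45 and 3 in KD, too few for a fold. Each count against control also includes Slc25a45, which passed the filter through its control reads. Of the 38 members, 3 were called in all 6 comparisons, Slc25a4, Slc25a10 and Slc25a11, and 2 in none, Slc25a24 and Slc25a46. The same count over all genes was not made, so these numbers have no background. In single comparisons 49.7 to 64.4% of all genes were called. The summed level of all 39 members was 3165 ± 82.5 CPM in delta45, 3721 ± 108 in FL, 3472 ± 151 in KD and 3185 ± 25.8 in control (SD, n = 3 each).

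**Figure D1:**
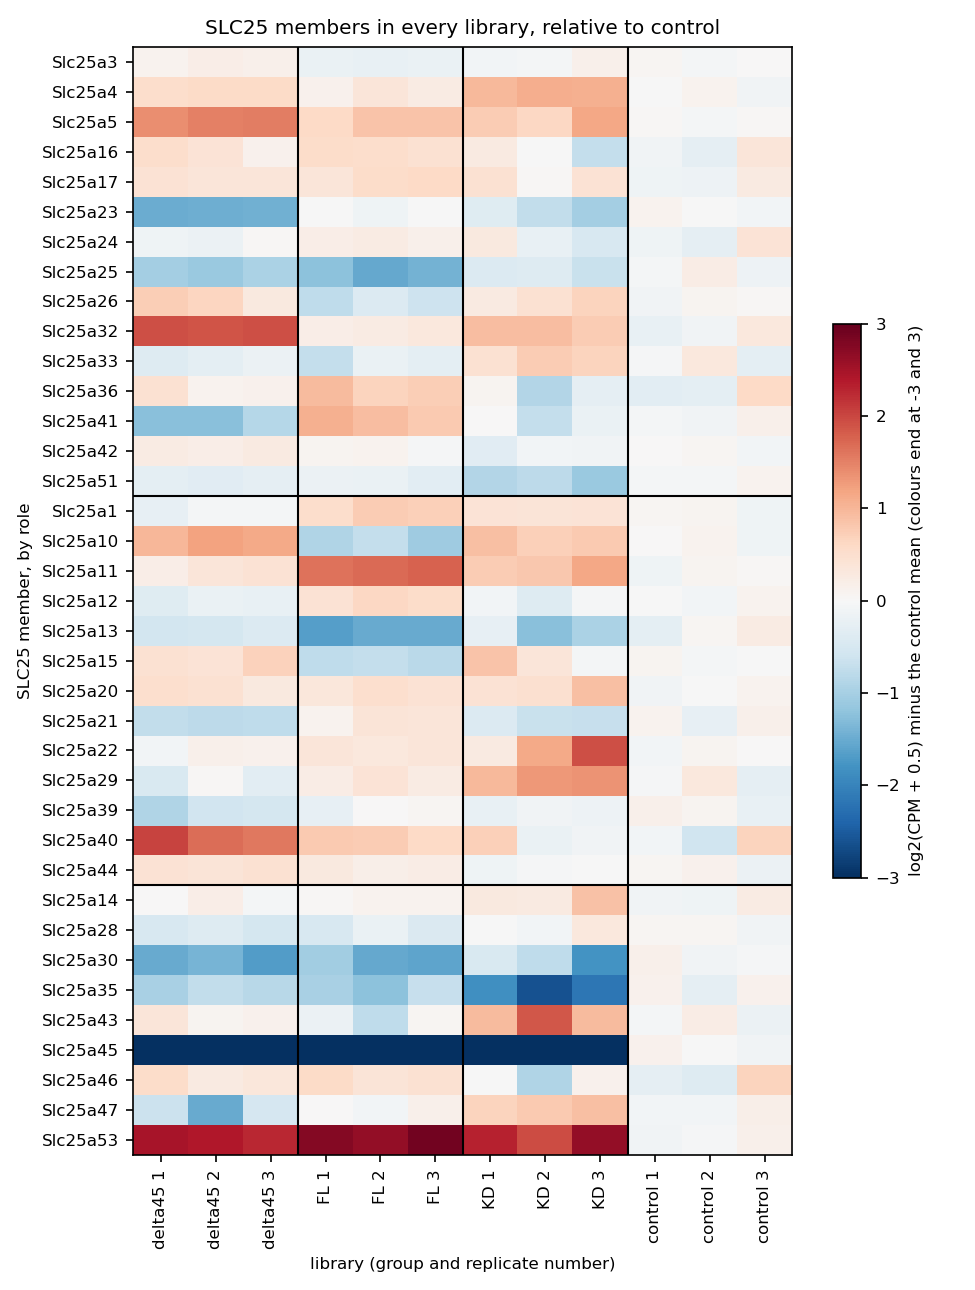
Colour gives log2(CPM + 0.5) of the tested members but 1 in each library minus its mean over the control libraries, with members in rows grouped by role and the 12 libraries in columns by group. Slc25a45 is at the low end and Slc25a53 at the high end in all 9 libraries with the knockdown, while the other rows go in both directions.

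**Figure D2:**
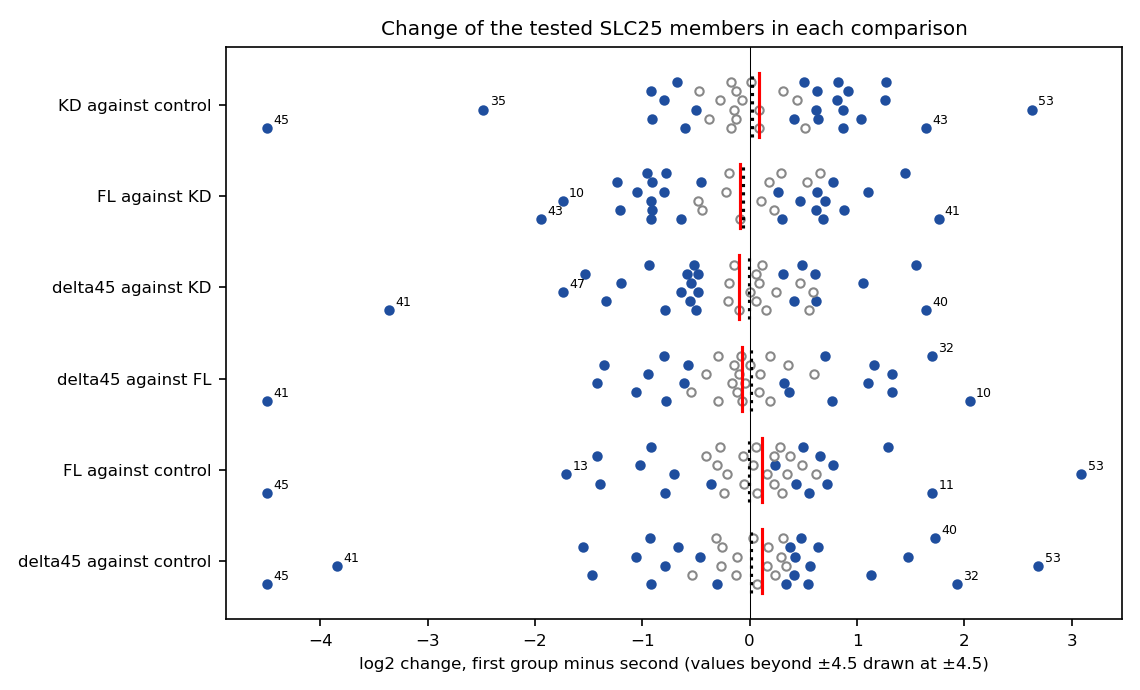
Each point is the fitted log2 change of one tested member, first-named group minus second, with filled points for calls at an adjusted p under 0.05 and open points for the rest. Red bars are medians over the members drawn, dotted bars medians over all genes tested, and numbers are Slc25a numbers; Slc25a45 is left out between delta45, FL and KD, where it had at most 3 reads per group.

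Slc25a45, a relative of the carnitine and basic amino acid carriers, was all but absent outside control. It had 0 reads in all 3 delta45 and all 3 FL libraries, 0.139, 0.109 and 0 CPM in KD, and 45.4, 41.0 and 38.3 CPM in control. The KD group held 3 reads in all and the control group 1484. The level was at least 684-fold lower in delta45 and at least 479-fold lower in FL than in control, taking 3 reads over the group as the floor. In KD it was 476-fold lower than in control, with an exact binomial 95% interval of 163 to 2313 that covers counting error only. It passed the filter on low counts through its control reads, so a difference was bound to be called, and edgeR gave adjusted p = 4.9e-08 in delta45, 7.17e-08 in FL and 2.5e-07 in KD, each against control. With at most 3 reads per group, no fold is given among delta45, FL and KD.

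The nearest tested genes along the chromosome, in a RefSeq gene order, were chosen after the values were seen. Genes that did not pass the filter on low counts were skipped, so other genes may lie between. Frmd8 averaged 50.7 ± 6.58 CPM in delta45, 78.8 ± 3.24 in FL, 98.0 ± 6.83 in KD and 71.9 ± 6.76 in control. Tigd3, on the other side, averaged 6.2 ± 0.733 CPM in delta45, 2.83 ± 0.236 in FL, 8.28 ± 1.18 in KD and 4.36 ± 1.19 in control. Reads were thus all but missing at Slc25a45 and present at the nearest tested gene on each side, although the levels of these genes also changed. Against control, Frmd8 had a log2 change of -0.51 in delta45 (adjusted p = 0.00214) and 0.45 in KD (adjusted p = 0.00688), and Tigd3 one of -0.64 in FL (adjusted p = 0.0323) and 0.90 in KD (adjusted p = 0.00424). Dpf2, the next tested gene beyond Tigd3, averaged 106 ± 1.3 CPM in delta45, 242 ± 19.1 in FL, 204 ± 19.1 in KD and 298 ± 22.6 in control, and was called lower in each group than in control, with a log2 change of -1.49 in delta45 (adjusted p = 1.14e-07). Neat1, a long noncoding RNA gene and the next tested gene beyond Frmd8, averaged 252 ± 7.12 CPM in delta45, 1182 ± 217 in FL, 141 ± 96.4 in KD and 116 ± 9.41 in control, with a log2 change of 3.35 in FL against control (adjusted p = 6e-06) and 1.12 in delta45 against control (adjusted p = 0.0117). Whether the Slc25a45 difference came with the knockdown or with a line shared by delta45, FL and KD cannot be told apart.

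Slc25a53, an X-linked member with no substrate assigned with certainty, showed the opposite contrast. It had 10.9, 10.3 and 9.38 CPM in delta45, 13.4, 12.3 and 14.7 in FL, 9.69, 7.38 and 12.2 in KD, and 1.39, 1.5 and 1.76 in control. All 9 libraries with the knockdown were above all 3 control libraries. The log2 change against control was 2.69 ± 0.22 in delta45 (SE; edgeR adjusted p = 3.75e-07), 3.09 ± 0.222 in FL (adjusted p = 1.27e-07) and 2.63 ± 0.223 in KD (adjusted p = 1.63e-06). As for Slc25a45, knockdown and line cannot be told apart here. Of the nearest tested genes on each side, Gm6275 averaged 17.6 ± 0.993 CPM in delta45, 21.3 ± 0.99 in FL, 15.8 ± 1.11 in KD and 25.6 ± 1.41 in control, while Fam199x averaged 74.0 ± 5.04 CPM in delta45, 109 ± 15.9 in FL, 37.3 ± 38.4 in KD and 26.3 ± 11.0 in control. For Slc25a53, FL was higher than KD by 0.47 with adjusted p = 0.0463, a call lost under library totals (0.20, adjusted p = 0.354) and without any one FL library (0.40 to 0.53, adjusted p = 0.15 to 0.0563).

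Among the adenine nucleotide translocases, which exchange ADP for ATP, Slc25a4 was highest in KD and Slc25a5 highest in delta45. Slc25a4 had 356, 368 and 370.2 CPM in delta45, 269.9, 316 and 291 in FL, 486, 523 and 518 in KD, and 243, 267 and 231 in control. Its KD libraries stood above all others, and the log2 change was 1.04 ± 0.097 in KD against control (adjusted p = 3.06e-06), -0.80 in FL against KD (adjusted p = 1.54e-05) and -0.48 in delta45 against KD (adjusted p = 0.000885). It was also higher in delta45 than in control, by 0.56 with adjusted p = 0.000205. The call in FL against control (0.24, adjusted p = 0.0434) was lost under library totals (0.02, adjusted p = 0.864) and without FL replicate 2 (0.19, adjusted p = 0.167), FL replicate 3, control replicate 1 or control replicate 3. The call in delta45 against FL (0.32, adjusted p = 0.0129) was lost without FL replicate 1 (0.26, adjusted p = 0.0585), without delta45 replicate 2 and without delta45 replicate 3.

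Slc25a5, the translocase of proliferating cells, had 236, 256 and 261 CPM in delta45, 137, 164 and 162 in FL, 153, 138 and 201 in KD, and 91.6, 86.4 and 91.4 in control. Delta45 lay above every other group and control below every other, while FL and KD overlapped. It was higher than in control by 1.48 ± 0.134 in delta45 (adjusted p = 8.4e-07), 0.78 in FL (adjusted p = 0.000228) and 0.87 in KD (adjusted p = 0.00015). A pseudogene named after it is annotated, so reads that aligned to several places may be missing from its count. There were 1.42 to 1.51 Slc25a4 reads per Slc25a5 read in delta45, 1.8 to 1.97 in FL, 2.58 to 3.78 in KD and 2.53 to 3.09 in control. Delta45 and FL had lower ratios than any KD or control library. Slc25a3, the phosphate carrier that supplies ATP synthase, ranged from 351 to 473 CPM over the 12 libraries, and its only call was 0.37 higher in delta45 than in FL (adjusted p = 0.00437), or 0.64 under library totals.

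**Figure D3:**
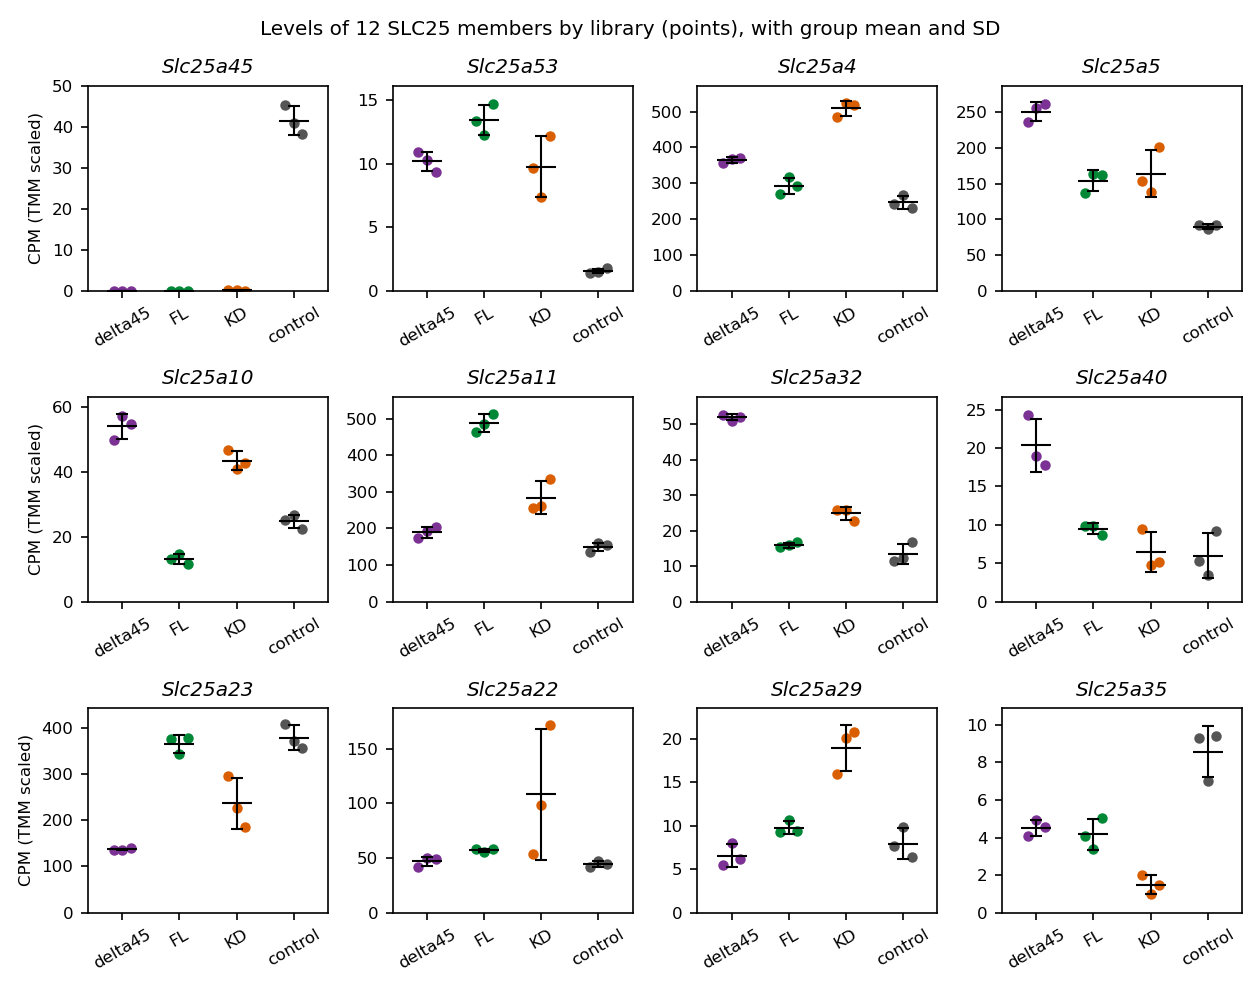
Points are TMM-scaled CPM of 12 members in each library, with the group mean and SD as bars, delta45, FL, KD and control from left to right and each axis starting at 0. Slc25a45 is seen in control and Slc25a53 is low there, Slc25a10 and Slc25a32 are highest in delta45, Slc25a11 in FL, and Slc25a4 and Slc25a29 in KD.

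The calcium-regulated ATP-Mg/phosphate carriers set the adenine nucleotide pool of the matrix, and the 3 measured well moved differently. Slc25a23 had 135, 136 and 139 CPM in delta45, 375, 343 and 377 in FL, 296, 227 and 186 in KD, and 408, 372 and 356 in control. Delta45 was below all other libraries and FL overlapped control. The log2 change was -1.47 ± 0.143 in delta45 against control (adjusted p = 1.56e-06), -1.42 ± 0.142 in delta45 against FL (adjusted p = 2.59e-06) and -0.68 in KD against control (adjusted p = 0.00144). FL exceeded KD by 0.63 (adjusted p = 0.00197), or by 0.35 with adjusted p = 0.0783 under library totals.

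Slc25a25 had 17.1, 16 and 18.1 CPM in delta45, 14.9, 12 and 13 in FL, 26.4, 27.1 and 22.2 in KD, and 33.8, 41.3 and 31.9 in control. It was lower in each of the other groups than in control, with log2 changes of -1.06 in delta45 (adjusted p = 2.39e-05), -1.42 in FL (adjusted p = 2.85e-06) and -0.50 in KD (adjusted p = 0.00962). Without control replicate 2 the KD value was -0.38 with adjusted p = 0.0516. Slc25a24, of the same subfamily, ranged from 23.6 to 44.1 CPM and was called in no comparison. Slc25a41, a short form without the calcium-binding part, was sparse, with 2 reads in delta45, 60 in FL, 18 in KD and 26 in control. It passed the filter on low counts through its FL reads, so its fold and call against FL involve the group that let it in. The delta45 level was 42.8-fold lower than FL, with an exact binomial 95% interval of 11.3 to 361, and 18-fold lower than control, with an interval of 4.5 to 156.

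Slc25a32 carries folate, and Slc25a26 carries S-adenosylmethionine, the methyl donor. Slc25a32 had 52.8, 51.1 and 52.2 CPM in delta45, 15.3, 15.9 and 16.7 in FL, 25.9, 25.9 and 22.9 in KD, and 11.4, 12.4 and 16.8 in control. Delta45 was highest and KD next, and FL and control overlapped. Fitted log2 changes were 1.93 ± 0.142 in delta45 against control (adjusted p = 1.56e-07), 1.70 ± 0.141 in delta45 against FL (adjusted p = 4.41e-07), 1.06 in delta45 against KD (adjusted p = 3.39e-05) and 0.87 in KD against control (adjusted p = 0.000277). Slc25a26 had 6.84, 6.39 and 4.84 CPM in delta45, 2.08, 2.79 and 2.35 in FL, 4.74, 5.54 and 6.48 in KD, and 3.54, 4.11 and 4.0 in control. FL was below every other library, with log2 changes of -1.21 against KD (adjusted p = 0.000503) and -0.70 against control (adjusted p = 0.0186), and delta45 was above FL by 1.33 (adjusted p = 0.000206). The call against control was lost without FL replicate 1 (-0.61, adjusted p = 0.0667) and without FL replicate 3, control replicate 2 or control replicate 3.

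Slc25a33 and Slc25a36 both carry pyrimidine nucleotides and went in opposite directions between FL and KD. Slc25a33 had 11.8, 12.6 and 13.8 CPM in delta45, 9.27, 13.5 and 12.7 in FL, 21.5, 26.6 and 25.2 in KD, and 15.3, 19.6 and 12.6 in control. KD was above all others. Against KD the log2 change was -1.05 in FL (adjusted p = 0.000397) and -0.94 in delta45 (adjusted p = 0.000758), and KD exceeded control by 0.63 (adjusted p = 0.0121), or 0.47 with adjusted p = 0.0593 without control replicate 3. Slc25a36 had 84.1, 65.7 and 66.8 CPM in delta45, 118, 97.1 and 102 in FL, 64.4, 33.0 and 50.5 in KD, and 48.7, 50.2 and 93.4 in control. FL was above every other library, and it was higher in FL than in KD by 1.1 (adjusted p = 0.00296) and than in control by 0.72 (adjusted p = 0.0288), where control replicate 3 lay close to FL and the value without it was 1.15. That call against control was lost without control replicate 1 (0.55, adjusted p = 0.121), control replicate 2, FL replicate 1 or FL replicate 3, and by library totals (0.50, adjusted p = 0.127). In delta45 against KD it missed the threshold (0.55, adjusted p = 0.0843) and passed it with the replicate number as a block (0.58, adjusted p = 0.0431).

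Of the other cofactor carriers, Slc25a51, which takes NAD into the matrix in human cells, was lowest in KD. It had 187, 180 and 189 CPM in delta45, 202, 198 and 183 in FL, 125, 132 and 106 in KD, and 219, 221 and 247 in control. KD lay below all other libraries and control above them. The log2 change was -0.92 ± 0.104 in KD against control (adjusted p = 1.52e-05), 0.68 in FL against KD (adjusted p = 0.00011) and 0.62 in delta45 against KD (adjusted p = 0.000266).

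Slc25a42, a coenzyme A carrier, had 44.4, 43.0 and 45.1 CPM in delta45, 39.6, 40.5 and 36.5 in FL, 29.6, 35.4 and 34.7 in KD, and 37.4, 39.1 and 35.5 in control, and its only call was 0.41 higher in delta45 than in KD (adjusted p = 0.00437). Slc25a16, linked to the same cofactor, ranged from 14.2 to 34.8 CPM and was called only in FL against KD, 0.62 higher in FL (adjusted p = 0.0306), or 0.38 with adjusted p = 0.0957 without KD replicate 3 and lost as well without any one FL library. Slc25a17, the peroxisomal member, ranged from 51.1 to 86.3 CPM and was higher than control by 0.38 in delta45 (adjusted p = 0.032) and 0.50 in FL (adjusted p = 0.00895). The delta45 call was lost without control replicate 1 (0.31, adjusted p = 0.123), control replicate 2 or delta45 replicate 1, and the FL call under library totals (0.27, adjusted p = 0.125). Over all 16 nucleotide, phosphate and cofactor carriers, 5 were higher and 3 lower in KD against control, 5 and 6 in FL against KD, 4 and 5 in delta45 against KD, 6 and 2 in delta45 against FL, 5 and 2 in FL against control, and 6 and 4 in delta45 against control. As shares called either way these were 50, 68.8, 56.2, 50, 43.8 and 62.5%, beside 49.7, 58.0, 59.9, 52.8, 59.3 and 64.4% of all genes.

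Of the carboxylate carriers, Slc25a10 was higher and Slc25a11 lower in delta45 than in FL. Slc25a10 exchanges malate or succinate for phosphate. It had 50, 57.4 and 55.0 CPM in delta45, 13.1, 14.8 and 11.5 in FL, 46.8, 41.1 and 42.9 in KD, and 25.1, 26.7 and 22.6 in control. The 4 groups did not overlap, in the order delta45, KD, control, FL. The log2 change was 2.05 ± 0.127 in delta45 against FL (adjusted p = 2.85e-08), -1.74 ± 0.127 in FL against KD (adjusted p = 2e-07), 0.82 in KD against control (adjusted p = 0.000123), 1.13 in delta45 against control (adjusted p = 3.9e-06) and -0.92 in FL against control (adjusted p = 4.18e-05). Delta45 exceeded KD by 0.31 (adjusted p = 0.0367), a call lost without delta45 replicate 2 (0.29, adjusted p = 0.0937) and without 4 other single libraries.

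Slc25a11 exchanges 2-oxoglutarate for malate in the malate-aspartate shuttle. It had 173, 194 and 203 CPM in delta45, 465, 485 and 514 in FL, 256, 262 and 336 in KD, and 137, 159 and 154 in control. The groups did not overlap, in the order FL, KD, delta45, control. Fitted log2 changes were 1.70 ± 0.123 in FL against control (adjusted p = 1.39e-07), 0.78 in FL against KD (adjusted p = 0.000126), 0.92 in KD against control (adjusted p = 4.69e-05), -1.36 ± 0.122 in delta45 against FL (adjusted p = 8.83e-07) and -0.58 in delta45 against KD (adjusted p = 0.00112). Delta45 exceeded control by 0.34 (adjusted p = 0.025), or 0.27 with adjusted p = 0.108 without control replicate 1. Slc25a1, the citrate carrier, had 193, 219.7 and 218 CPM in delta45, 326, 384 and 373 in FL, 304, 299 and 303 in KD, and 236, 239 and 209 in control. It was higher than control by 0.66 in FL (adjusted p = 9.51e-05) and 0.41 in KD (adjusted p = 0.00471), and the change in delta45 against FL was -0.78 (adjusted p = 2.47e-05), or -0.50 under library totals.

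The aspartate/glutamate carriers of the same shuttle, Slc25a12 and Slc25a13, parted in FL. Slc25a12 had 85.5, 95.4 and 94.4 CPM in delta45, 149, 169 and 161 in FL, 104, 84.0 and 107 in KD, and 108, 104 and 117 in control. FL was above all other libraries, by 0.70 over KD (adjusted p = 0.000151) and 0.55 over control (adjusted p = 0.000913), and the change in delta45 against FL was -0.80 (adjusted p = 4.51e-05). Under library totals these values were 0.43, 0.32 and -0.53. Slc25a13 had 8.01, 8.11 and 8.86 CPM in delta45, 3.44, 3.84 and 3.83 in FL, 10, 4.67 and 5.95 in KD, and 9.64, 12.4 and 14.1 in control. FL was lowest, with log2 changes of -1.71 ± 0.261 against control (adjusted p = 9.91e-05) and -0.91 against KD (adjusted p = 0.0101). The change against KD was -0.46 with adjusted p = 0.0862 without KD replicate 1. There were 42.2 to 44.2 Slc25a12 reads per Slc25a13 read in FL, against 10.7 to 11.8 in delta45, 10.4 to 18 in KD and 8.28 to 11.2 in control.

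The amino acid carriers include those of basic amino acids, glutamate and ornithine. Slc25a29, a carrier of basic amino acids, had 5.53, 7.99 and 6.13 CPM in delta45, 9.27, 10.6 and 9.36 in FL, 15.9, 20.1 and 20.8 in KD, and 7.61, 9.83 and 6.35 in control. KD stood above every other library, by 1.26 ± 0.201 over control (adjusted p = 0.00021), and the changes against KD were -1.53 in delta45 (adjusted p = 3.7e-05) and -0.96 in FL (adjusted p = 0.00113). Slc25a22, a glutamate carrier, had 42.1, 50.2 and 48.7 CPM in delta45, 57.9, 55.8 and 58.1 in FL, 53.9, 98.8 and 172 in KD, and 42.0, 47.5 and 45.0 in control. The KD libraries spanned a wider range than the other 9 libraries together. The log2 change was 1.27 ± 0.288 in KD against control (adjusted p = 0.0027) and -1.20 in delta45 against KD (adjusted p = 0.00294), or 0.76 and -0.70 without KD replicate 3. In FL against KD the change was -0.91 (adjusted p = 0.0147), a call lost without that library (-0.41, adjusted p = 0.0846). Slc25a15 imports ornithine, and it had 26.4, 25.4 and 30.9 CPM in delta45, 10.9, 11.3 and 10.7 in FL, 34.5, 24.6 and 18.1 in KD, and 20, 18.1 and 18.9 in control. FL was below all other libraries, with log2 changes of -1.24 against KD (adjusted p = 0.000157) and -0.79 against control (adjusted p = 0.00382), and delta45 exceeded FL by 1.33 (adjusted p = 7.82e-05).

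Slc25a21, the oxodicarboxylate carrier of lysine breakdown, had 22.1, 21.5 and 21.9 CPM in delta45, 40.1, 48.9 and 48.0 in FL, 28.2, 23.2 and 23.1 in KD, and 40.4, 31.2 and 41.4 in control. FL and control were both above delta45 and KD. Against control the log2 change was -0.79 in delta45 (adjusted p = 0.000244) and -0.60 in KD (adjusted p = 0.003), and FL exceeded KD by 0.88 (adjusted p = 0.000148). Slc25a44, a branched-chain amino acid carrier, had 217, 208 and 219 CPM in delta45, 195, 181 and 188 in FL, 146, 156 and 158 in KD, and 166, 175 and 141 in control. Delta45 was above all others, by 0.49 over KD (adjusted p = 0.000976) and 0.41 over control (adjusted p = 0.00234). Slc25a20, the carnitine/acylcarnitine carrier, averaged 60.0 ± 4.25 CPM in delta45, 60.1 ± 3.2 in FL, 68.7 ± 12.9 in KD and 44.7 ± 3.51 in control. It was higher than control in each, by 0.42 (adjusted p = 0.0127), 0.43 (adjusted p = 0.0139) and 0.62 (adjusted p = 0.00181) on the log2 scale, and the delta45 and FL calls were lost without control replicate 1 (0.37 in each, adjusted p = 0.0566 and 0.0596).

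Slc25a39 and Slc25a40 both take glutathione into the matrix, and delta45 had less of the first and more of the second. Slc25a39 had 214, 271 and 278 CPM in delta45, 339, 406 and 416 in FL, 343, 375 and 359.9 in KD, and 443, 423 and 344 in control. All delta45 libraries were below all others, with log2 changes of -0.67 against control (adjusted p = 0.000656), -0.50 against KD (adjusted p = 0.00557) and -0.61 against FL (adjusted p = 0.0017). The value against FL was -0.33 with adjusted p = 0.0536 under library totals. Slc25a40 had 24.3, 18.9 and 17.8 CPM in delta45, 9.9, 9.88 and 8.71 in FL, 9.41, 4.78 and 5.17 in KD, and 5.25, 3.51 and 9.23 in control. Delta45 was above all others, by 1.73 ± 0.314 over control (adjusted p = 0.00034), 1.64 ± 0.313 over KD (adjusted p = 0.000672) and 1.1 over FL (adjusted p = 0.00821). There were 8.83 to 15.6 Slc25a39 reads per Slc25a40 read in delta45, 34.2 to 47.8 in FL, 36.5 to 78.5 in KD and 37.3 to 120.4 in control. Slc25a18, a second glutamate carrier, was at 0 to 0.757 CPM in every library. Of the 13 tested members with these roles, 6 were higher and 2 lower in KD against control, 5 and 5 in FL against KD, 3 and 5 in delta45 against KD, 4 and 6 in delta45 against FL, 4 and 3 in FL against control, and 6 and 2 in delta45 against control. The shares called were 61.5, 76.9, 61.5, 76.9, 53.8 and 61.5%, beside 49.7, 58.0, 59.9, 52.8, 59.3 and 64.4% of all genes.

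Among uncoupling protein relatives and members with little-known solutes, Slc25a30 and Slc25a35 were highest in control. Slc25a30 had 23.6, 25.7 and 21.2 CPM in delta45, 33.0, 23.5 and 22.5 in FL, 49.8, 40.4 and 19.6 in KD, and 76.8, 63.4 and 66.8 in control. Against control the log2 change was -1.55 ± 0.262 in delta45 (adjusted p = 0.000184), -1.39 ± 0.263 in FL (adjusted p = 0.000535) and -0.91 in KD (adjusted p = 0.0103). The delta45 call against KD (-0.64, adjusted p = 0.0483) was lost without any one delta45 library and without KD replicate 2, and the value was -0.32 without KD replicate 1 (adjusted p = 0.266). Slc25a35 had 4.08, 4.92 and 4.54 CPM in delta45, 4.06, 3.37 and 5.06 in FL, 2.02, 0.977 and 1.49 in KD, and 9.32, 7.02 and 9.4 in control. Control was above and KD below all other libraries. The change against control was -0.93 in delta45 (adjusted p = 0.00348), -1.02 in FL (adjusted p = 0.00254) and -2.48 ± 0.267 in KD (adjusted p = 1.03e-05). FL and delta45 exceeded KD by 1.45 (adjusted p = 0.00061) and 1.55 (adjusted p = 0.000347).

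Slc25a47, known as a liver-enriched member, had 3.98, 1.92 and 4.39 CPM in delta45, 6.56, 6.05 and 7.24 in FL, 10.5, 11.4 and 12.5 in KD, and 6.11, 6.02 and 7.29 in control. KD was above and delta45 below all other libraries, with FL and control between them. The log2 change was 0.81 in KD against control (adjusted p = 0.0142), -1.74 ± 0.252 in delta45 against KD (adjusted p = 8.58e-05) and -0.92 in delta45 against control (adjusted p = 0.00648), the last being -0.61 without delta45 replicate 2. Slc25a43, sparse throughout, averaged 1.36 ± 0.201 CPM in delta45, 0.86 ± 0.362 in FL, 3.57 ± 1.61 in KD and 1.14 ± 0.239 in control, and was higher in KD than in control by 1.64 ± 0.374 (adjusted p = 0.00277). Slc25a28, the broadly expressed mitoferrin and an iron carrier, averaged 41.0 ± 1.88 CPM in delta45, 44.0 ± 4.96 in FL, 60.1 ± 8.91 in KD and 56.6 ± 3.49 in control. Against control the change was -0.46 in delta45 (adjusted p = 0.00552) and -0.36 in FL (adjusted p = 0.0233), the FL call being lost without FL replicate 1 (-0.30, adjusted p = 0.0913) and without each of several other libraries. Slc25a14, an uncoupling protein relative, ranged from 7.62 to 15.8 CPM and had calls of 0.51 in KD against control (adjusted p = 0.0466) and -0.48 in delta45 against KD (adjusted p = 0.0475). Both were lost without KD replicate 3 (0.27 and -0.25), and the second also with the replicate number as a block (-0.45, adjusted p = 0.0522). Slc25a46, an outer-membrane protein tied to mitochondrial shape, ranged from 36.3 to 108 CPM and was called in no comparison without a block. With the replicate number as a block it passed the threshold in FL against KD (0.72, adjusted p = 0.0167) and in delta45 against KD (0.64, adjusted p = 0.0264). Counts over these 9 members were 4 higher and 3 lower in KD against control, 2 and 3 in FL against KD, 1 and 6 in delta45 against KD, 0 and 1 in delta45 against FL, 1 and 4 in FL against control, and 1 and 5 in delta45 against control. The shares called were 77.8, 55.6, 77.8, 11.1, 55.6 and 66.7%, beside 49.7, 58.0, 59.9, 52.8, 59.3 and 64.4% of all genes. The lower calls include Slc25a45 in delta45 against KD, where it had 0 and 3 reads. They also include it in each comparison with control, where it was bound to be called. With 9 members, a single call moves these shares strongly.

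Divided by the length of annotated exon, the leading member differed between groups. Slc25a4 led delta45 at 155 CPM per kb, overlapping Slc25a5 at 152, and Slc25a11 led FL at 230.1. In KD, Slc25a4 led at 216, clear of Slc25a1 at 139.6, and in control Slc25a39 led at 146, clear of Slc25a1 at 105. Slc25a4 was also at 105 in control and its libraries overlapped those of Slc25a1. The exon lengths come from an annotation of GRCm38, while the counts were made on mm9. The same 6 members, Slc25a1, Slc25a3, Slc25a4, Slc25a5, Slc25a11 and Slc25a39, were among the 7 highest per kb in every group. The remaining place among the 7 was held by Slc25a44 in delta45 and by Slc25a23 in FL, KD and control.

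**Figure D4:**
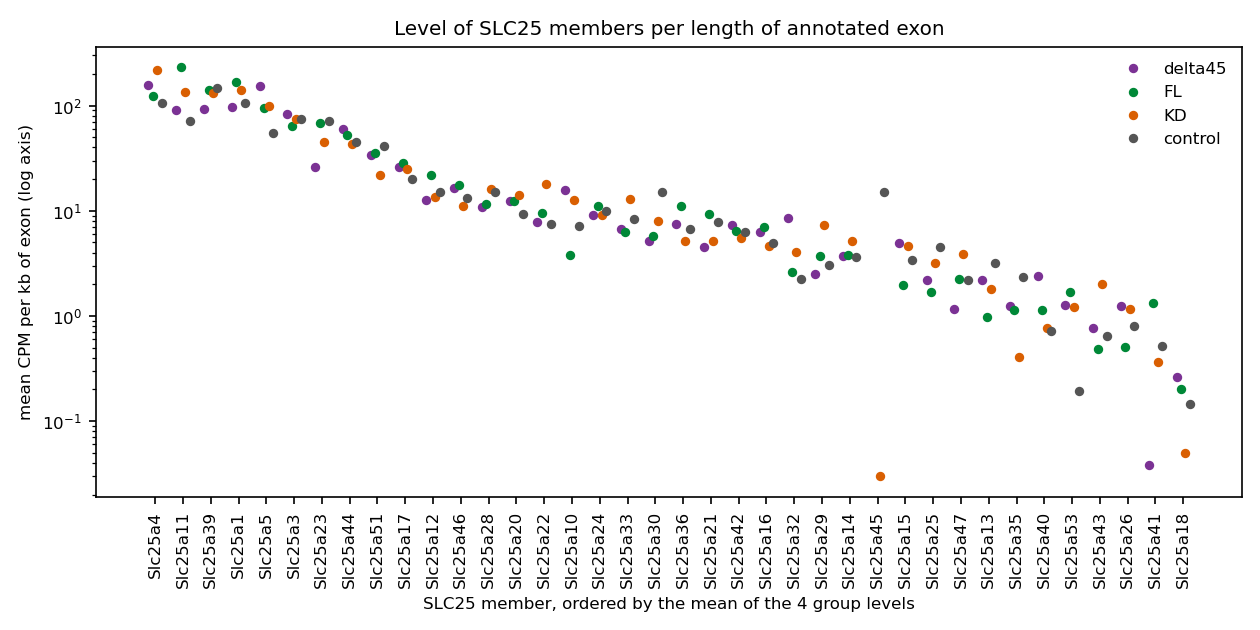
Points are group means of CPM per kb of annotated exon on a log axis for the members, 1 of them not drawn, ordered by the mean of the 4 groups. Means of 0 cannot be drawn, so Slc25a45 shows KD and control points alone; the control point lies near 15 and the KD point near 0.03.

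Several lists around the carriers were counted the same way. Of 15 tested parts of the carrier import route, 6 were higher and 3 lower in KD against control, 2 and 7 in FL against KD, 3 and 4 in delta45 against KD, 7 and 3 in delta45 against FL, 4 and 2 in FL against control, and 7 and 4 in delta45 against control. Called either way were 60.0, 60.0, 46.7, 66.7, 40.0 and 73.3% of them, beside 49.7, 58.0, 59.9, 52.8, 59.3 and 64.4% of all genes. Tomm40, the pore, averaged 63.0 ± 4.56 CPM in delta45, 34.1 ± 2.29 in FL, 68.9 ± 4.34 in KD and 38.0 ± 2.9 in control. It was higher in delta45 and KD than in control, by 0.73 (adjusted p = 5.94e-05) and 0.86 (adjusted p = 3.3e-05), and the change in FL against KD was -1.01 (adjusted p = 5.7e-06). The small TIM chaperone Timm10 was higher than control by 1.69 in delta45 (adjusted p = 7.63e-06) and 1.20 in KD (adjusted p = 0.00028). Timm9, its partner, had log2 changes of -1.18 in FL against KD (adjusted p = 1.01e-05) and 0.96 in delta45 against FL (adjusted p = 5.16e-05). Agk, a subunit of the TIM22 complex, had a change of -1.25 in FL against control (adjusted p = 6.52e-05).

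The 32 tested enzymes that make or use the carried solutes counted 12 higher and 7 lower in KD against control, 7 and 14 in FL against KD, 11 and 11 in delta45 against KD, 14 and 5 in delta45 against FL, 14 and 9 in FL against control, and 16 and 8 in delta45 against control. Called either way were 59.4, 65.6, 68.8, 59.4, 71.9 and 75.0% of them, beside the same 6 shares of all genes, 49.7, 58.0, 59.9, 52.8, 59.3 and 64.4%. The folate enzymes that stand beside Slc25a32 were higher in delta45 than in FL, with log2 changes of 2.21 ± 0.118 for Mthfd1 (adjusted p = 8.76e-09), 1.99 ± 0.139 for Shmt1 (adjusted p = 8.44e-08), 1.63 ± 0.1 for Mthfd2 (adjusted p = 2.71e-08) and 1.61 ± 0.126 for Shmt2 (adjusted p = 2.36e-07). Mthfd1 had 122, 124 and 122 CPM in delta45, 26.5, 25.9 and 27.1 in FL, 88.5, 71.8 and 65.3 in KD, and 27.3, 25.9 and 25 in control. As with Slc25a32, its delta45 libraries were highest, KD next, and FL and control close together. Mthfd2 averaged 75.2 ± 2.12 CPM in delta45, 24.2 ± 1.9 in FL, 51.2 ± 1.89 in KD and 91.8 ± 5.27 in control, and so was highest in control. Cpt1a makes the acylcarnitines that Slc25a20 carries, and it was higher in KD than in control by 1.6 ± 0.093 (adjusted p = 6.74e-08). Got1, the cytosolic aminotransferase of the malate-aspartate shuttle, had changes against control of -1.47 in delta45 (adjusted p = 1.69e-07) and -1.52 in FL (adjusted p = 1.45e-07). Gclc, which starts glutathione synthesis, was higher in delta45 than in KD by 1.17 (adjusted p = 5.99e-06).

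Other mitochondrial transporters, 16 in all, counted 4 higher and 2 lower in KD against control, 1 and 5 in FL against KD, 0 and 7 in delta45 against KD, 0 and 4 in delta45 against FL, 2 and 4 in FL against control, and 1 and 8 in delta45 against control. Called either way were 37.5, 37.5, 43.8, 25, 37.5 and 56.2%, each below its share of all genes, 49.7, 58.0, 59.9, 52.8, 59.3 and 64.4%. Slc8b1, the mitochondrial sodium/calcium exchanger, averaged 11.5 ± 0.381 CPM in delta45, 12.9 ± 0.658 in FL, 34.0 ± 1.31 in KD and 29.3 ± 0.885 in control. The change against control was -1.35 in delta45 (adjusted p = 3.03e-07) and -1.19 in FL (adjusted p = 1.19e-06). Of the 3 tested family members under other names, Ucp2, an uncoupling protein, had a change of -0.63 in delta45 against control (adjusted p = 0.000296), and Mtch1, an outer-membrane relative, one of 0.73 in KD against control (adjusted p = 0.000661). Mtch2, another such relative, had a change of -0.32 in KD against control (adjusted p = 0.0327), or -0.25 with adjusted p = 0.114 without KD replicate 2. Ucp1 and Ucp3 were not tested. Slc25a37, the erythroid mitoferrin left out of the family here, averaged 126 ± 3.17 CPM in delta45, 61.7 ± 8.06 in FL, 47.3 ± 16.1 in KD and 106 ± 7.44 in control.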

How the data were processed

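Poly(A) RNA of induced MEL cells was sequenced from TruSeq RNA V2 libraries, per the labels' protocols, in 4 groups of 3 libraries. The authors deposited 1 file of whole-number read counts per gene for each library, on mm9. The submitters' processing notes name TopHat 1.4.1 with cutadapt 1.1, HTSeq 0.5.3p9, and also DESeq 1.10.1, with no settings given here. HTSeq's 5 tallies of reads assigned to no gene were left out of totals and tests, and reads aligned to several places, 38.69 to 53.31% of tallied reads, were among them, which lowers genes with near-identical copies.

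Symbols came from a table that matched 32919 of 37991 gene identifiers. Counts were fitted in edgeR 4.0.16 (R 4.3.3) by the quasi-likelihood test, with TMM scaling, filterByExpr, 4 group means over all 12 libraries, and Benjamini-Hochberg adjustment over 12837 genes at 0.05. Log2 changes are the fitted ones, with their standard errors. CPM values were computed from the deposited counts with TMM-scaled totals. Medians describe lists, and no list was tested as a set. In counts simulated for KD against control (12534 genes, 50 changed at each fold), 14% of the 1.5-fold changes were recovered, 70% of the 2-fold, 92% of the 4-fold and 96% of the 8-fold ones, and 4 calls were false. Far fewer genes changed there than the 49.7% called in the data, so the recovery does not carry over to them. Intervals at 95% and the floor of 3 reads cover counting error only.

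Library values were given, per comparison, for up to 6 members each way by size of change among those called with groups that did not overlap and a mean of at least 5 CPM in the higher group, for pairs and trios of paralogs, and for some other members. For other lists up to 4 genes per comparison were eligible, by adjusted p. The members, lists and naming rule were chosen with earlier results of these data known. Values of 1 member and of 1 marker are not reported here, though counts and sums include them.

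Replicate numbers come from the labels, which do not say what they share. Deviations from group means correlated between same-numbered libraries at 0.118 to 0.325 for delta45 and KD and at 0.141 to 0.326 for FL and KD, so the numbers were taken to pair the libraries of these groups. All reported changes, p-values and counts nonetheless come from the fit without a block, unless the block is named. Between delta45 and FL the range was 0.07 to 0.36, and with control it ran from -0.298 to 0.375. No 2 libraries of a group agreed within sampling noise. Alternatives were RLE size factors, library totals, no filter on low counts, a filter of at least 1 CPM in 3 libraries, DESeq2 1.42.0, fits of only the groups compared, the replicate number as a block, and leaving out each library.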

Additional observations from a re-analysis of the deposited data

How the results depend on the processing

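For single genes, 8883 values were recomputed over 456 results. Of these, 8345 kept their direction and their side of the threshold, 339 lost a call, 198 gained one, and 1 reversed. That was Slc25a1 in FL against KD, at 0.26 (adjusted p = 0.0421) with TMM and -0.01 (adjusted p = 0.934) by library totals. Member calls that held in every alternative that tested them numbered 19 of 23 in KD against control, 17 of 26 in FL against KD, 20 of 24 in delta45 against KD, 16 of 19 in delta45 against FL, 12 of 19 in FL against control and 18 of 24 in delta45 against control. Slc25a41 is counted in delta45 against KD and against control, although fits of only the groups compared did not test it there. The same count over all genes was not made. The causes of the other changes were not tested.

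By library totals, 7 members were higher in FL than in KD and 5 higher in FL than in control. The member medians were then 0.14 in KD against control, -0.40 in FL against KD, 0.20 in delta45 against FL, -0.11 in FL against control and 0.17 in delta45 against control, and 10 other transporters were called in FL against KD. With no filter on low counts the medians were -0.08 in FL against KD, 0.17 in FL against control and 0.16 in delta45 against control, and of the relatives under other names 1 was called in KD against control, 0 in FL against control and 1 in delta45 against control. With only the libraries compared in the fit, medians were -0.03 in FL against KD, -0.06 in delta45 against KD and 0.15 in delta45 against control. That fit called 2 other transporters and 1 relative under another name in KD against control, and 8 and 2 in delta45 against FL. RLE size factors called 1 such relative in delta45 against control. Shares of all genes called are not given for any alternative fit, so counts from those fits have no background.

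With the replicate number as a block, 13 members were higher and 14 lower in FL against KD, and 10 and 14 in delta45 against KD, with counts in the other 4 comparisons as without it. Besides the calls given with the results, this pairing ended the Slc25a45 call in delta45 against KD (adjusted p = 0.0577) and no other member call. A block fit without the control libraries, chosen after seeing the data, gave medians of -0.02 in FL against KD, -0.09 in delta45 against KD and -0.11 in delta45 against FL.

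Leaving out each library in turn gave 6 to 15 members higher in FL than in control, the 6 without control replicate 1, and 7 to 13 higher in delta45 than in KD, the 13 without KD replicate 1. Member medians ran from 0.05 to 0.23 in KD against control, -0.17 to 0.03 in FL against KD, -0.15 to -0.05 in delta45 against KD, -0.1 to -0.03 in delta45 against FL, 0.06 to 0.2 in FL against control and 0.01 to 0.17 in delta45 against control. The median of 0.03 came without KD replicate 3. Calls among import parts ran from 4 to 8 in delta45 against KD and 3 to 9 in FL against control. Among relatives under other names they ran from 1 to 2 in KD against control, 0 to 2 in delta45 against FL, 0 to 1 in FL against control and 1 to 2 in delta45 against control. Among other transporters they ran from 3 to 7 in KD against control, 4 to 8 in delta45 against KD, 4 to 8 in delta45 against FL and 5 to 12 in delta45 against control.

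In the simulation 14% of the 1.5-fold changes were recovered, but few genes changed there. In the data 49.7 to 64.4% of genes were called, which makes the adjusted threshold easier to pass. How often smaller changes were missed in the data was not tested. With 3 libraries a group, a member without a call is still not shown to be unchanged. A member with under 5 CPM rests on few reads.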
